A study of Mus musculus with 9 samples.

Results

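The genes described here present peptides on MHC class II molecules: H2-Aa, H2-Ab1, H2-Eb1, H2-DMa, H2-DMb1, Cd74, Ciita, H2-Oa and H2-Ob. They were taken from the array table by gene symbol. Of these 9 genes, 7 had probe sets that the platform annotation gives to that gene alone, 11 probe sets in all, out of 12393 genes and 22626 probe sets. H2-DMb1 and H2-Ob had only probe sets that also carry another gene's symbol. A probe set is the group of short array sequences that together give 1 signal for a transcript.

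The samples were lung total RNA of adult FVB/N mice, hybridised to 9 Affymetrix mouse 430A arrays in 3 groups of 3. HO mice (SP-C-hCFTRtg/tg) carried 2 alleles of a transgene, a normal human CFTR cDNA driven by the promoter of Sftpc, which is active in respiratory epithelial cells. HE mice (SP-C-hCFTRtg/-) carried 1 allele and wild type (WT) mice none. By the labels all of them kept both copies of the mouse's own Cftr, the chloride channel gene mutated in cystic fibrosis, except that WT replicate 3 has no genotype entry. HO replicate 2 is titled HO and its genotype entry gives 2 alleles, while its description writes 1. Nothing says that the replicates were separate animals, so the tests measure the spread between these samples, which may be technical. The replicate numbers 1, 2 and 3 also part the source names, whose first number is 3, 9 or 11. What that number stands for is not in the labels.

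MHC class II molecules are pairs of an alpha and a beta chain that show peptides from taken-up proteins to helper T cells. H2-Aa and H2-Ab1 encode the chains of I-A, and H2-Eb1 the beta chain of I-E. In the endoplasmic reticulum the chains assemble on the invariant chain, Cd74. In late endosomes H2-DM exchanges the remnant of that chain for antigenic peptides, and H2-O, found mainly in B cells, restrains H2-DM. Ciita is the coactivator that switches these genes on, constitutively in dendritic cells and B cells and after interferon gamma in many others. In the mouse lung, dendritic cells, B cells, macrophages and alveolar type II cells can carry class II. Since whole lung was measured, fewer cells of a type and less RNA per cell cannot be told apart.

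Most of the class II genes lie side by side on chromosome 17 and have in their promoters an X box, bound by the RFX complex, and a Y box, bound by NF-Y, at a fixed spacing. Ciita acts through the proteins bound there. These boxes are shown as the sequence feature that class II promoters are known to share, and nothing on the arrays was tested against them. A pair of letter strings close to the known cores, GNAAC followed after 20 to 30 bases by GATTGG, was searched on both strands, and it was chosen after the windows had been read. The search covered 6 of the 9 genes, since H2-Ab1, Cd74 and Ciita were not searched here. The pair was present in 5 of the 7 windows of these genes, each of 300 bases, in the RefSeq promoter table (build GRCm38.p6, the C57BL/6J genome and not FVB/N), and in 214 of all 32851 windows (0.651%). The 5 windows belong to H2-Aa, H2-Eb1, H2-DMb1, H2-Oa and H2-Ob, with 24 to 27 bases between the strings. Neither window of H2-DMa held the pair, which says only that these letters are not there. Bases 110 to 21 before each transcript start follow, 5′ to 3′ on the gene's strand, with the 2 strings in capitals.
H2-Aa (chr17:34287844-34287933, minus strand): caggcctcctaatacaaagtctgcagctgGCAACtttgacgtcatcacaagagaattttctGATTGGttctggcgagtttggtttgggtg
H2-Eb1 (chr17:34305757-34305846, plus strand): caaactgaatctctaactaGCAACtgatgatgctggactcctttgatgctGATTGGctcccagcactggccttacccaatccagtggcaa
H2-DMb1 (chr17:34153081-34153170, plus strand): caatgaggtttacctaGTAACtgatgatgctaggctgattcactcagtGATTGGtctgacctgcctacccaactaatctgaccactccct
H2-Oa (chr17:34092269-34092358, plus strand): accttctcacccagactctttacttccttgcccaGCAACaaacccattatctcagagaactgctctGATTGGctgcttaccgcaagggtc
H2-Ob (chr17:34238795-34238884, plus strand): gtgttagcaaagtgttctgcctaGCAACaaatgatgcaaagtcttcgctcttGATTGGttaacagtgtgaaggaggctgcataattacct
The first string starts 76 to 94 bases before the transcript start and the second 44 to 62 bases before it.

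Array medians ran from 697 to 742 intensity units, and 4.26% to 5.48% of an array's values did not exceed 25.55 units, the level used as a floor. The ratio of 3′ to 5′ control signal was 1.07 to 1.39 for Actb, highest in HO replicates 2 and 1, and 0.768 to 0.885 for Gapdh. The lung markers Sftpc, Sftpb, Sftpa1 and Scgb1a1 had mean log2 signals of 15.13 to 15.91. The number of arrays limits the precision: the HO minus WT difference of a typical probe set had a standard error of 0.16 in log2 units, the median over all tested.

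No member gene passed the test for a difference between genotypes. Of the 10 member probe sets that passed the filter on dim signals, 0 passed an adjusted p of 0.05 with limma for HO against WT, HE against WT or HO against HE, and 0 had an unadjusted p under 0.05. Over all 13576 tested probe sets 0 passed (0%) in each of these comparisons, and 4.49%, 3.11% and 2.56% had an unadjusted p under 0.05. The member arrays of HO and WT overlapped at all 10 probe sets, where 3.98% of all tested were higher in HO and 4.9% lower without overlap. These fits hold genotype alone. With replicate number as a further term, the standard error was 0.12 at H2-Ab1 1450648_s_at and at H2-DMa. Their 95% intervals for HO minus WT then left out 0, and the lowest member limma adjusted p was 0.8261. The values below are signals in intensity units, listed by replicate 1, 2 and 3. Differences between genotypes are log2, from the fits with genotype alone, with moderated standard errors (SE, n = 3 per group).

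**Figure D1:**
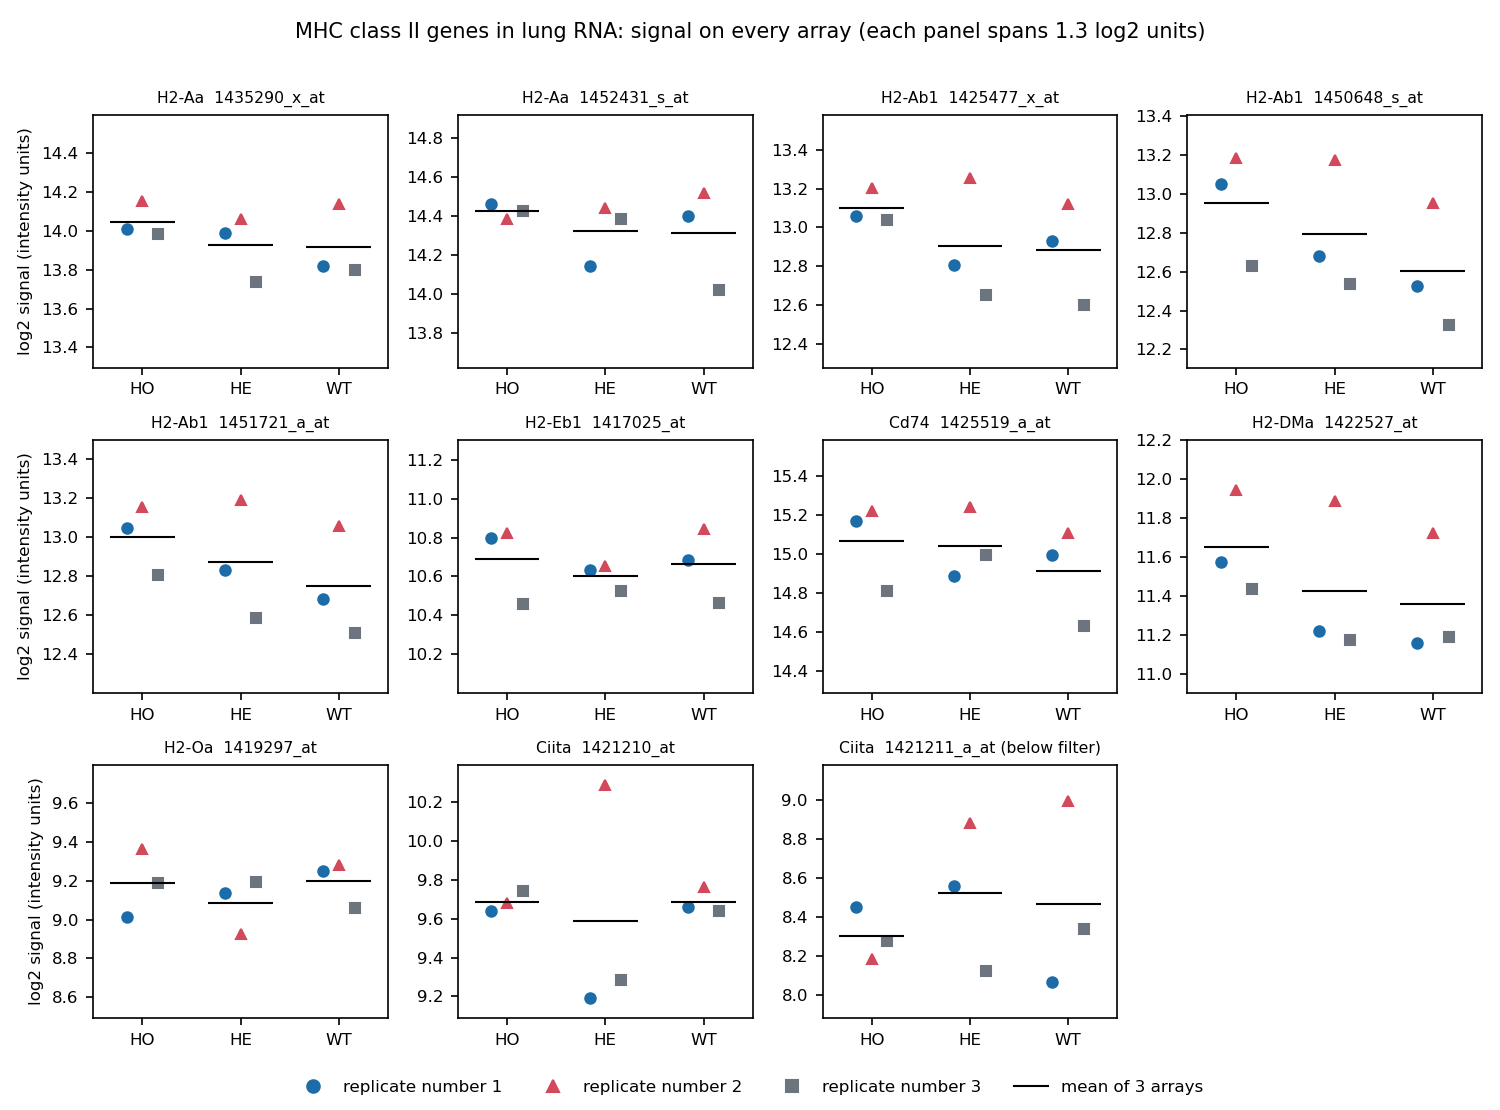
Log2 signal of the 11 class II probe sets on each of the 9 arrays, by genotype (HO, HE, WT), with symbols for the replicate numbers and a bar for the mean of 3 arrays; each panel spans the same range but starts at its own level. Replicate 2 is the highest of its genotype in all 3 genotypes for 7 of the 10 tested probe sets.

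The I-A alpha chain gene H2-Aa was measured by a pair of probe sets. Probe set 1435290_x_at read 16473, 18206 and 16165 in HO, 16237, 17055 and 13672 in HE, and 14460, 18007 and 14251 in WT. Its groups overlapped, and replicate 2 was the highest array of each genotype. HO minus WT was 0.13 ± 0.14 and HE minus WT 0.01 ± 0.14 (limma adjusted p = 0.9915 and 0.9997). Probe set 1452431_s_at read 22527, 21393 and 22004 in HO, 18059, 22218 and 21398 in HE, and 21631, 23490 and 16600 in WT. Here the HO arrays stood close together and WT replicates 2 and 3 were the highest and lowest of all 9. HO minus WT was 0.11 ± 0.15 and HE minus WT 0.01 ± 0.15, so that the probe sets of H2-Aa differ little in the genotype comparisons and more in how they follow the replicate numbers.

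H2-Ab1 encodes the I-A beta chain and had 3 probe sets. Probe set 1450648_s_at had the largest HO minus WT difference of any tested member, 0.35 ± 0.22, with a 95% interval of -0.12 to 0.83. Its signals were 8475, 9310 and 6342 in HO, 6559, 9225 and 5936 in HE, and 5907, 7927 and 5137 in WT. HO replicate 3 lay below WT replicate 2, so the groups overlapped, although HO was above WT within each replicate number, by 0.52, 0.23 and 0.30 for numbers 1, 2 and 3. Probe set 1451721_a_at read 8463, 9125 and 7161 in HO, 7303, 9345 and 6154 in HE, and 6583, 8520 and 5836 in WT, with HO minus WT at 0.25 ± 0.19. Probe set 1425477_x_at read 8535, 9416 and 8424 in HO, 7156, 9781 and 6444 in HE, and 7812, 8896 and 6218 in WT, with HO minus WT at 0.22 ± 0.18. At each of the 3 probe sets replicate 2 was the highest and replicate 3 the lowest array in every genotype. HE minus WT was between 0.02 and 0.19 for them.

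H2-Eb1, the I-E beta chain gene, read 1778, 1809 and 1406 in HO, 1589, 1612 and 1473 in HE, and 1645, 1840 and 1412 in WT at probe set 1417025_at. The genotype means lay closer together than the arrays of HO or of WT. HO minus WT was 0.03 ± 0.15 and HE minus WT -0.06 ± 0.15.

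Cd74, the invariant chain, read 36807, 38259 and 28766 in HO, 30293, 38735 and 32678 in HE, and 32683, 35270 and 25398 in WT. HO minus WT was 0.16 ± 0.17, with a 95% interval of -0.22 to 0.53, and HE minus WT 0.13 ± 0.17. Replicate 2 was again the highest in each genotype, while the lowest was replicate 3 in HO and WT and replicate 1 in HE.

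H2-DMa, the alpha chain of the peptide editor, read 3046, 3948 and 2769 in HO, 2382, 3792 and 2310 in HE, and 2283, 3379 and 2339 in WT. The 3 arrays of replicate 2 were the 3 highest of the 9. HO minus WT was 0.29 ± 0.23 and HE minus WT 0.07 ± 0.23, and within the replicate numbers HO stood above WT by 0.42, 0.22 and 0.24. For its partner H2-DMb1, probe set 1449580_s_at is shared with H2-DMb2 and gave 0.12 ± 0.16 for HO minus WT. A dimmer shared probe set, 1418638_at, was below the filter. It gave 0.16 ± 0.31, in a fit without the filter. H2-DMb2, the neighbouring beta chain gene, has a probe set of its own that read 1073, 1117 and 1005 in HO, 925, 863 and 828 in HE, and 1051, 890 and 827 in WT. The HO arrays all exceeded the HE arrays, as 3.47% of all tested probe sets did, with HO minus HE at 0.29 ± 0.13 (limma adjusted p = 0.9998).

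H2-Oa, the alpha chain of the H2-DM inhibitor, read 516, 658 and 583 in HO, 562, 486 and 586 in HE, and 609, 622 and 534 in WT. Its groups overlapped, with HO minus WT at -0.01 ± 0.14 and HE minus WT at -0.11 ± 0.14. H2-Ob shares its only probe set, 1422201_at, with the noncoding gene Gm20506. That probe set was dim, below the filter, and without the filter gave -1.61 ± 0.67 for HO minus WT (limma adjusted p = 0.9211) with overlapping groups. It cannot be assigned to H2-Ob.

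Ciita read 798, 820 and 857 in HO, 585, 1250 and 623 in HE, and 807, 870 and 797 in WT at probe set 1421210_at. HE held both the highest and the 2 lowest of the 9 arrays, and HO and WT had nearly the same mean, with HO minus WT at 0.0011 ± 0.24. HE minus WT was -0.10 ± 0.24, and it was -0.45 without HE replicate 2. The second probe set, 1421211_a_at, read 350, 290 and 310 in HO, 378, 473 and 278 in HE, and 268, 510 and 324 in WT. It was below the filter, and without the filter HO minus WT was -0.17 ± 0.27.

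**Figure D2:**
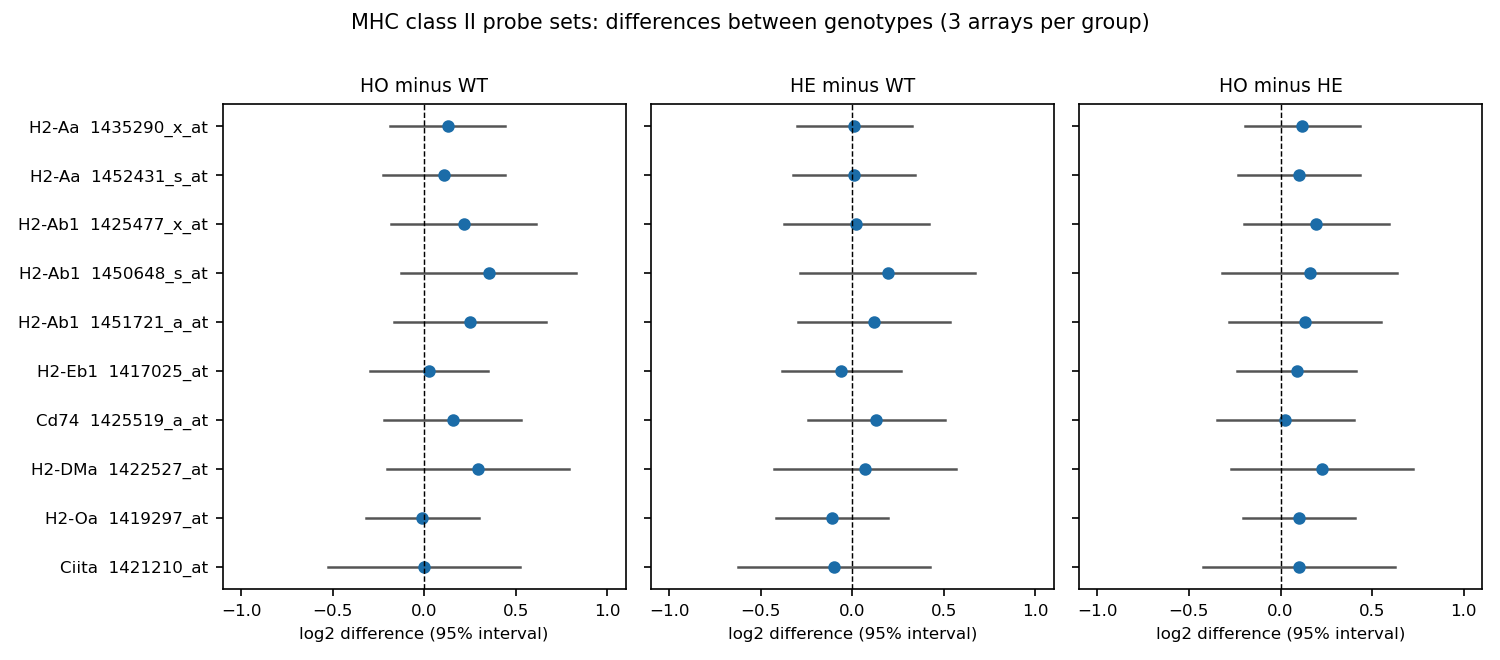
Log2 differences of the 10 tested class II probe sets for HO minus WT, HE minus WT and HO minus HE (points, with moderated 95% intervals as lines). Every interval includes 0, and the points run from -0.01 to 0.35 for HO minus WT, from -0.11 to 0.19 for HE minus WT and from 0.03 to 0.22 for HO minus HE.

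As a list, the members had a positive median for HO minus WT and a median near 0 for HE minus WT. The HO minus WT difference was above 0 for 9 of the 10 probe sets, against 48.8% of all tested, and the member median was 0.14 against -0.0047 over all tested. HO was above WT within all 3 replicate numbers for 6 of the 10, against 13.2% of all tested. These 6 are probe sets of H2-Aa, H2-Ab1 (3), Cd74 and H2-DMa. For HE minus WT 7 of 10 were above 0 (47.8% of all tested), 2 of 10 within every number (11.2%), and the member median was 0.02. HO minus HE was above 0 for 10 of 10 (51.4%), within every number for 3 of 10 (11.8%), with a median of 0.11. These comparisons share arrays, and the members share arrays and, in part, genes, so the counts are descriptions without a test. With HO replicate 2 counted as HE, the median of HO minus HE was -0.02.

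Across replicate numbers, most member probe sets read highest in replicate 2, although no member passed the test. In a limma fit with genotype and replicate number as terms, replicate 3 minus replicate 2 was below 0 for 10 of 10 member probe sets (51.7% of all tested were above 0), with a median of -0.37 against 0.008 over all tested. The replicate 3 arrays all lay below the replicate 2 arrays for 7 of 10, against 7.01% of all tested. At an unadjusted p under 0.05 there were also 7 of 10 (3.96% of all tested were lower at that level), and 0 of the 13576 probe sets (0%) passed an adjusted p of 0.05. Both counts of 7 cover 5 of the 7 genes, since 3 of the probe sets read H2-Ab1. With each gene at its probe set of highest mean, 4 of 7 genes were lower at that level. The members share arrays and, in part, genes, so these counts are descriptions without a test. The unadjusted count was 4 of 10 when HO replicate 3, HE replicate 2, WT replicate 2 or WT replicate 3 was left out. Replicate 2 was the highest array in all 3 genotypes for 7 of 10, against 5.1% of all tested. The exceptions were H2-Aa 1452431_s_at and H2-Oa, where it was the lowest array of HO and of HE, and Ciita, where HO replicate 3 was above HO replicate 2.

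Among the 10 tested member probe sets the difference was widest at H2-Ab1 and H2-DMa. At H2-Ab1 probe set 1450648_s_at, replicate 3 read 6342, 5936 and 5137 in HO, HE and WT, and replicate 2 read 9310, 9225 and 7927. Replicate 3 minus replicate 2 was -0.61 ± 0.12, or 0.657 times, and the other H2-Ab1 probe sets gave -0.50 ± 0.12 and -0.43 ± 0.13 (limma adjusted p = 0.5022 to 0.5065). H2-DMa read 2769, 2310 and 2339 in replicate 3, against 3948, 3792 and 3379 in replicate 2. These are non-overlapping sets of arrays at -0.59 ± 0.12 (limma adjusted p = 0.5022). Its replicate 2 arrays were also all above those of replicate 1, by 0.54 ± 0.12 (limma adjusted p = 0.2558).

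The other classical chains and Cd74 followed in the same direction with smaller differences. Cd74 stood at -0.38 ± 0.13 for replicate 3 minus replicate 2, H2-Eb1 at -0.29 ± 0.12 and H2-Aa at -0.28 ± 0.12 by 1435290_x_at (limma adjusted p = 0.5322 to 0.5684). The other H2-Aa probe set gave -0.17 ± 0.15 with overlapping arrays. Ciita had -0.36 ± 0.21 and overlapping arrays, and without HE replicate 2 it had -0.02. H2-Oa differed least, at -0.04 ± 0.14. The shared H2-DMb2 and H2-DMb1 probe set 1418638_at gave -0.72 ± 0.16 in the fit without the filter (limma adjusted p = 0.6210), whereas the brighter shared one, 1449580_s_at, gave -0.08 ± 0.15.

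Replicate 2 minus replicate 1 was above 0 for 10 of 10 (49.9% of all tested), with a member median of 0.22. The replicate 2 arrays all lay above the replicate 1 arrays for 5 of 10, against 8.15% of all tested, and for 3 of 10 with median centring of the arrays. At an unadjusted p under 0.05, 3 of 10 were higher in replicate 2 (5.29% of all tested), and of all probe sets 4 passed the adjusted threshold (0.0295%), none of them a member. Class II signals beside the members did not all lie on that side. H2-Ea 1422892_s_at had -0.38 ± 0.19 for replicate 2 minus replicate 1, H2-DMb2 had -0.09 ± 0.12, and the shared 1449580_s_at had -0.10 ± 0.15 (limma adjusted p = 0.4836 to 0.8462). Those below the filter were above 0 in the fit without it. The shared 1418638_at had 0.55 ± 0.16, H2-Ea 1422891_at 0.93 ± 0.50 and H2-Ea 1426202_at, near the floor, 1.06 ± 0.42. Probe set 1422201_at, shared by H2-Ob and Gm20506, had 0.59 ± 0.70 (limma adjusted p = 0.4537 to 0.8183 for these). Replicate 3 minus replicate 1 had a median of -0.13, with 2 of 10 above 0 (49.9% of all tested) and 0 at an unadjusted p under 0.05 (11.6%). The F test over the 3 numbers had an unadjusted p under 0.05 for 4 of 10 member probe sets, against 12% of all tested. They are the 3 of H2-Ab1 and that of H2-DMa, so 2 of 7 genes. No member passed the adjusted threshold there, and 2 of all tested did (0.0147%). For 9 of 10 member probe sets the means of the numbers spread more than the means of the genotypes, and so did 61.1% of all tested.

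**Figure D3:**
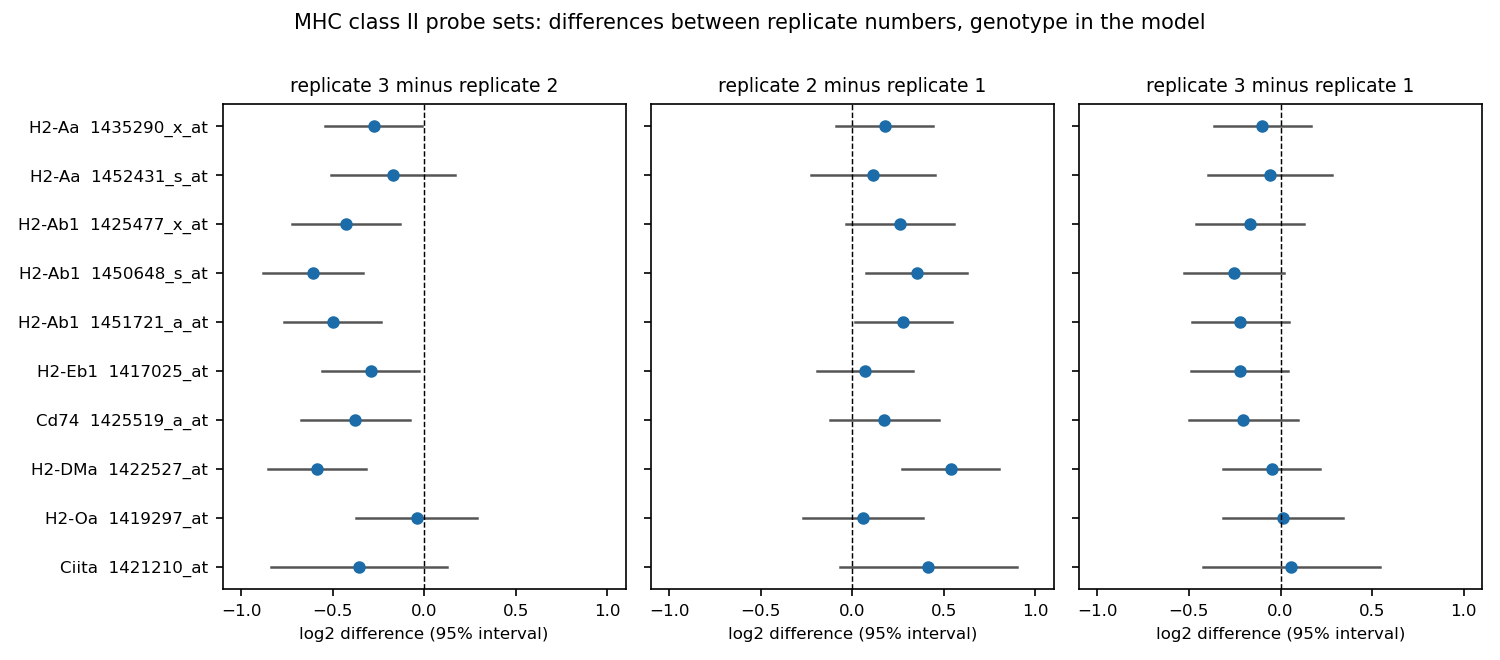
Log2 differences between replicate numbers for the 10 tested class II probe sets, with genotype in the model (points, with moderated 95% intervals as lines). For replicate 3 minus replicate 2 all points lie between -0.61 and -0.04, and 7 of the intervals do not reach 0. The genotype differences were drawn from fits with genotype alone, so counts of intervals reaching 0 are not directly comparable between the plots. At H2-Ab1 1450648_s_at the standard error is 0.12 here and 0.22 with genotype alone, while at H2-Oa it is 0.14 in both.

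Other genes of the pathway were taken from lists, with each gene at its probe set of highest mean. Of the 9 tested transcription factors that act at class II promoters (RFX, NF-Y and CREB proteins and cofactors), 3 were below 0 for replicate 3 minus replicate 2, with a median of 0.05. Of 11 genes that supply class II with peptide or move it, such as the cathepsins, 5 were below 0, with a median of 0.04. Both medians were near 0. For replicate 3 minus replicate 1, 7 of the 9 factors were above 0 (49.9% of all tested), with a median of 0.27. That median was 0.12 to 0.27 with each array left out in turn. Of the 11 supply genes 5 were above 0 there, with a median of -0.02. The RFX subunit Rfx5 was at -0.24 ± 0.12 for HO minus WT, and Ifi30, the thiol reductase of antigen processing, at 0.21 ± 0.14 (limma adjusted p = 0.9915 each). In HO minus WT 6 of the 9 factors and 5 of the 11 supply genes were below 0, with medians of -0.05 and 0.04. The first was -0.15 without HO replicate 3 and 0.027 without WT replicate 3, and the second -0.034 without WT replicate 2.

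Of the costimulatory and adhesion genes that act beside class II, none passed the test between genotypes. All 7 tested genes of the 11 listed had values below 0 in HO minus WT (median -0.20) and in HE minus WT (median -0.11), where 48.8% and 47.8% of all tested were above 0, and both comparisons share the WT arrays. The HE minus WT median was -0.022 without HE replicate 1 and -0.22 without HE replicate 3. Pdcd1lg2, a ligand of the inhibitory receptor PD-1, had -0.49 ± 0.13 in HO minus WT (limma adjusted p = 0.9915). Icosl, the ligand of the costimulator ICOS, had -0.64 ± 0.15 in HE minus WT (limma adjusted p = 0.9997), but -0.22 ± 0.15 in HO minus WT. T cell partners on the list (Cd4, Lag3 and Cd28) were below the filter, as was Cd80. No gene of the list passed, and 1 in each comparison had an unadjusted p under 0.05 (4.49% and 3.11% of all tested). Of the same 7 genes, 5 were below 0 in replicate 3 minus replicate 2, with a median of -0.06.

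Class I antigen presentation genes and interferon gamma response genes had mostly values below 0 for replicate 3 minus replicate 2, as the members had. At an unadjusted p under 0.05, 3.96% of all tested were lower, and 51.7% of all tested were above 0. For replicate 3 minus replicate 2, 15 of 16 class I genes were below 0 (median -0.24), and 3 had an unadjusted p under 0.05, all of them subunits of the immunoproteasome. Psmb9 stood at -0.74 ± 0.18, Psmb8 at -0.36 ± 0.14 and Psmb10 at -0.34 ± 0.12 (limma adjusted p = 0.5022 to 0.5464). Of 12 interferon gamma pathway genes 11 were below 0 (median -0.28), 5 at an unadjusted p under 0.05. The guanylate-binding genes Gbp7 and Gbp2 had -1.02 ± 0.25 and -0.79 ± 0.16, the GTPase gene Igtp -0.90 ± 0.35 and the transcription factor gene Irf1 -0.38 ± 0.13 (limma adjusted p = 0.5022 to 0.5445). None of these genes passed the adjusted threshold, and in HO minus WT the medians of the class I and interferon gamma lists were 0.04 and -0.04. Without WT replicate 3 these were -0.039 and -0.13, without WT replicate 1 the first was 0.12, and without WT replicate 2 the second was 0.073.

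HE replicate 2 stood apart in the interferon gamma list. Its summed signal was 71004 units there, against 37212 and 39219 in the other HE arrays, 40049 to 46325 in HO and 38751 to 49392 in WT. That array also held the highest Ciita signal. Without it, the list median for replicate 3 minus replicate 2 was -0.15, and the member median was -0.34. Ifng itself was below the filter, as were Cxcl9, Cxcl10, Ido1 and Socs1.

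**Figure D4:**
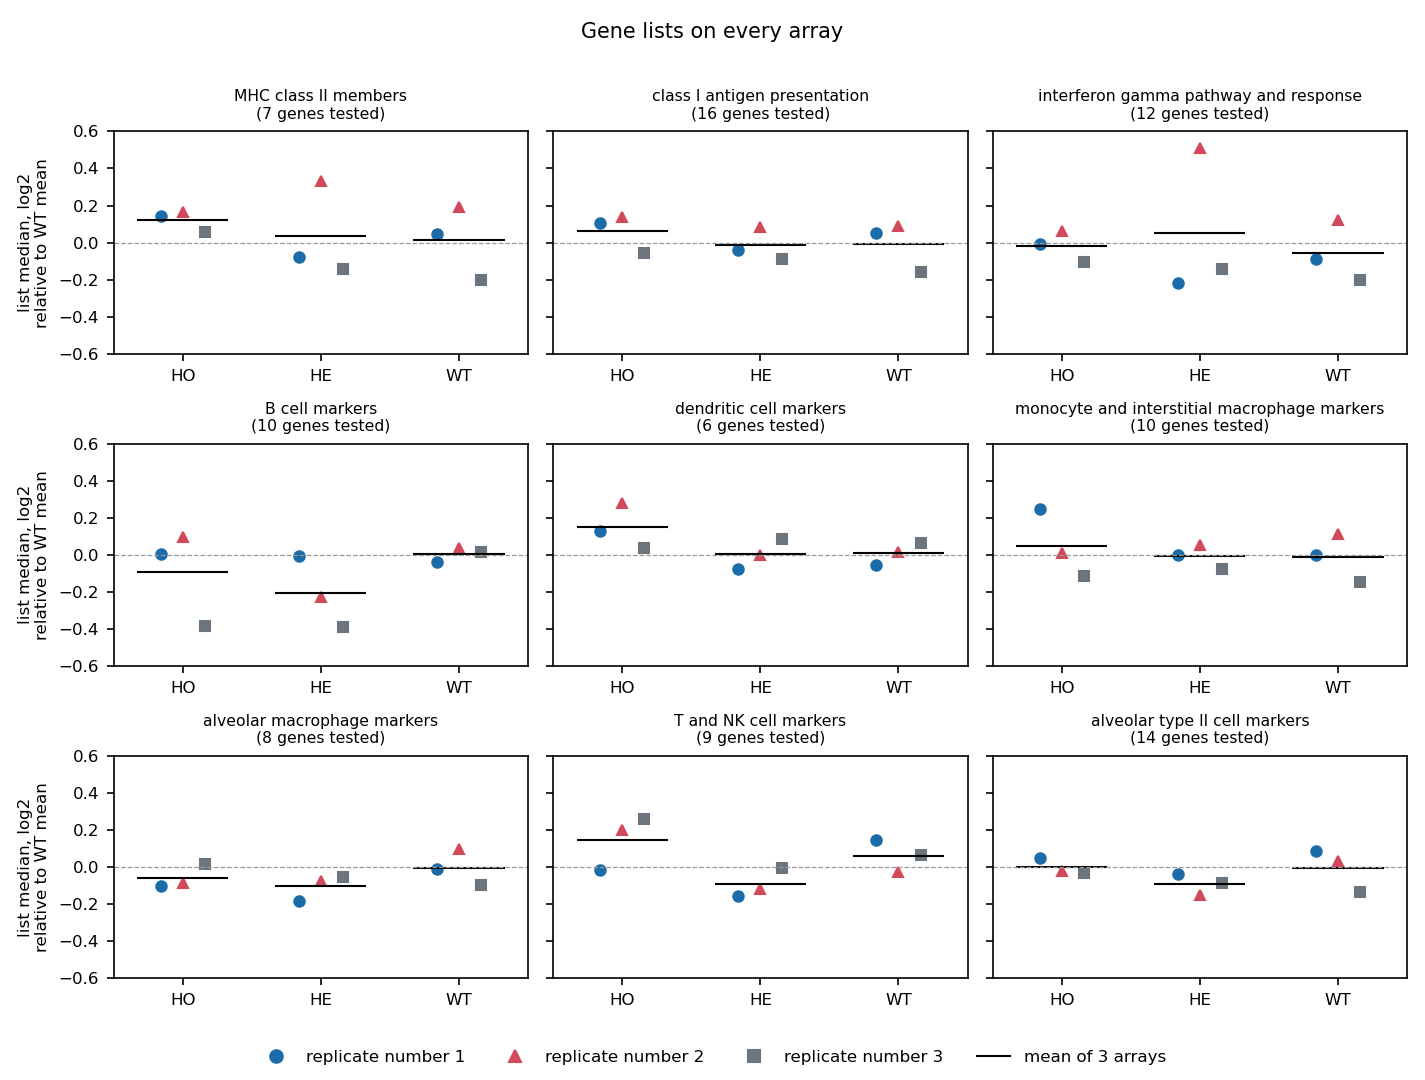
Median log2 signal of 9 gene lists on every array, relative to the WT mean of each gene, by genotype, with symbols for the replicate numbers and a bar for the mean of 3 arrays. The class II members have list medians of 0.17, 0.33 and 0.19 in replicate 2 of HO, HE and WT, and the interferon gamma list reaches 0.51 in HE replicate 2.

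Markers of the cells that carry class II were compared in the same way. Of 10 tested B cell markers 9 were below 0 for replicate 3 minus replicate 2 (median -0.25). The B cell receptor component Cd79a had -0.80 ± 0.26 and the kinase Blk -0.33 ± 0.13, whereas Ighm, the heavy chain gene, had 0.51 ± 0.22 (limma adjusted p = 0.5114 to 0.5613). The summed B cell signal was 9277 to 11557 units in replicate 3 and 10403 to 12436 in replicate 2, so the ranges overlapped, and Pax5 and Cr2 were below the filter. Of 10 monocyte and interstitial macrophage markers 8 were below 0 (median -0.20), with sums of 30216 to 34347 in replicate 3 and 34137 to 37898 in replicate 2. With each array left out in turn the list medians ran from -0.38 (without WT replicate 3) to -0.13 (without HO replicate 2) for B cell markers. They ran from -0.33 (without HE replicate 3) to -0.12 (without WT replicate 2) for monocyte and interstitial macrophage markers, and the class I median was -0.13 without HE replicate 2. The part of these cells in the class II difference was not tested.

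The remaining cell type lists had medians nearer 0 for replicate 3 minus replicate 2. This did not hold in every comparison of replicate numbers. Neutrophil markers had medians of 0.44 for replicate 2 minus replicate 1 and 0.37 for replicate 3 minus replicate 1. Of 6 dendritic cell markers 3 were below 0 for replicate 3 minus replicate 2 (median -0.11), with sums of 7304 to 7787 in replicate 3 and 7188 to 8374 in replicate 2. Itgax was tested, whereas Flt3, Xcr1, Ccl22, Batf3, Irf4 and Itgae were below the filter. Of 8 alveolar macrophage markers 3 were below 0 (median 0.04), and Marco and Siglecf, which define these cells, were below the filter. Of these 8, 2 were lower at an unadjusted p under 0.05 (3.96% of all tested): Il18, a cytokine gene, at -0.43 ± 0.12 and Fabp1, a fatty acid binding protein gene, at -0.43 ± 0.15 (limma adjusted p = 0.5022 and 0.5325). For replicate 2 minus replicate 1 they had 0.32 ± 0.12 and 0.54 ± 0.15 (limma adjusted p = 0.3566 and 0.2905). Of 14 alveolar type II markers 9 were below 0 (median -0.06), with Sftpc at -0.18 ± 0.14. Of 9 T and NK cell markers 5 were below 0 (median -0.07), and of 6 neutrophil markers 3 (median -0.06). Each of the 5 list medians of replicate 3 minus replicate 2 took both signs as single arrays were left out. They ran over -0.76 to 0.47 for neutrophil markers and within -0.17 to 0.11 for the others.

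Between genotypes, the medians of HO minus WT were -0.05 for B cell, 0.08 for dendritic cell, -0.07 for alveolar macrophage, 0.07 for monocyte and interstitial macrophage, -0.03 for type II, 0.05 for T and NK cell and -0.33 for neutrophil markers. These medians depended on single arrays. They ran from -0.24 without HO replicate 2 to -0.0089 without HO replicate 3 for B cell markers, and from -0.0012 without HO replicate 2 to 0.21 without HO replicate 3 for dendritic cell markers. For alveolar macrophage markers the range was -0.10 without WT replicate 1 to 0.0052 without WT replicate 2, and for monocyte and interstitial macrophage markers -0.074 without HO replicate 1 to 0.14 without HO replicate 3. For type II markers it was -0.13 without WT replicate 3 to 0.039 without WT replicate 1, and for T and NK cell markers 0.021 without WT replicate 2 to 0.24 without HO replicate 1. No gene of these lists passed an adjusted p of 0.05 with limma. The summed neutrophil signal was 8747 to 25537 units in HO, 12014 to 61718 in HE and 10446 to 46024 in WT, so the groups overlapped widely, and the median of -0.33 was -0.83 without HO replicate 1 and 0.06 without WT replicate 2. Dendritic cell sums were 7401 to 8374 in HO, 7018 to 7584 in HE and 7188 to 7787 in WT. Their part in the small HO minus WT differences of the class II genes was not tested.

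H2-Ea, the alpha chain partner of H2-Eb1, is a class II gene outside the 9. It had a wider gap between genotypes at a probe set whose mean signal fell just below the filter. It is a pseudogene in the C57BL/6J reference, and several laboratory H2 haplotypes make no I-E alpha chain. Probe set 1422891_at read 844, 1229 and 773 in HO, 488, 1379 and 175 in HE, and 166, 281 and 198 in WT. All HO arrays lay above all WT arrays, while the HE arrays spanned both. Such a gap was seen at 3.98% of the tested probe sets, which do not include this one, and the share among dimmer ones is not given. The mean log2 signal of 1422891_at, 8.84, was just under the filter limit of 8.90. In the fit without the filter HO minus WT was 2.15 ± 0.68 (limma adjusted p = 0.9211) and HE minus WT 1.22 ± 0.68 (limma adjusted p = 1). Within replicate numbers 1, 2 and 3, HO stood above WT by 2.35, 2.13 and 1.97. The other H2-Ea probe sets did not share this, with -0.01 ± 0.22 at 1422892_s_at and -0.17 ± 0.53 at 1426202_at, which lay near the floor. At 1422892_s_at HO read 878, 617 and 795, against 771, 821 and 700 in WT.

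**Figure D5:**
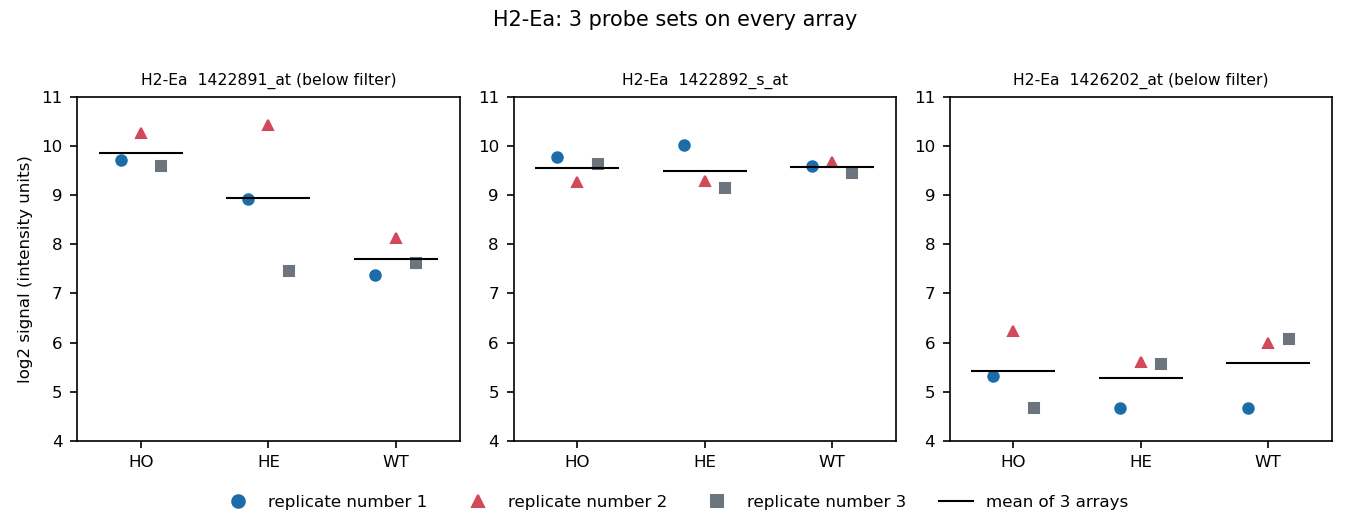
Log2 signal of the 3 H2-Ea probe sets on each array, by genotype (HO, HE, WT), with symbols for the replicate numbers and a bar for the mean of 3 arrays. Only 1422891_at separates HO, at 773 to 1229 intensity units, from WT, at 166 to 281.

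The genes whose signal followed class II most closely over the 9 arrays were found by Pearson correlation with the mean profile of H2-Aa, H2-Ab1, H2-Eb1 and Cd74. In that order they were Sptssa, a subunit of serine palmitoyltransferase (r = 0.955), Psmb9 (0.923), Ms4a6d (0.904), Mrpl32, a mitochondrial ribosomal protein (0.902), Iah1 (0.897), Gdi2, a regulator of Rab proteins (0.889), Rprm (0.886) and Dnttip1 (0.875). The points share arrays and scaling, and they were the highest of 13576 tested probe sets, so these are descriptions. After the means of the replicate numbers were removed, r was 0.902 for Sptssa, 0.800 for Psmb9, 0.929 for Ms4a6d and 0.560 for Dnttip1. Psmb9, which lies between H2-DMb1 and H2-Ob in the gene order of the region, read 4107, 4352 and 3302 in HO, 2816, 5788 and 2911 in HE, and 3282, 4120 and 2315 in WT. Among members outside the profile r was 0.818 for H2-DMa, 0.519 for Ciita and 0.148 for H2-Oa.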

How the data were processed

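The authors' deposited values are linear intensities, 1 for each array at each probe set. From the values, each array was scaled to a mean of 1500 (1500.4) without the lowest and highest 2%. The software and detection calls are not given in the sources used here. Intensities were raised to the 5th percentile of all values (25.55) and taken to log2, with the deposited scaling kept. Left out were 64 control probe sets and all whose mean log2 fell short of the 40th percentile (8.90), leaving 13576. limma 3.58.1 (lmFit, eBayes) in R 4.3.3 fitted genotype means to all 9 arrays, or genotype and replicate number, with Benjamini-Hochberg adjustment over the 13576 and a threshold of 0.05. The functions were tested on simulated data.

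Of all probe sets, 20380 had 1 symbol in the platform annotation, 691 several and 1555 none. Of those with 1 symbol, 20364 matched RefSeq and 0 symbols changed. No pair of arrays was closer than a median absolute log2 difference of 0.18. Replicate numbers met the pairing criterion (every r over 0.1) for HO with WT only: after subtracting group means, arrays of numbers 1, 2 and 3 correlated at 0.19, 0.14 and 0.28. HE with WT gave 0.30, 0.05 and 0.043, and HO with HE 0.16, 0.15 and 0.028. The HO with WT pairing rests on this and on the shared numbers in the titles.

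The members and lists were chosen with earlier results of these data known. All member probe sets, up to 4 genes of lowest p per list described, H2-Ea, Sftpc and the 8 genes most like the members were to be named. Socs1, Pax5 and other list genes below the filter are named for being dim. Alternatives were quantile normalization, median centring, other filters and floors, the replicate block, a trended robust eBayes, 1 probe set per gene, a fit to only the arrays compared, HO replicate 2 as HE, and each array left out.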

Additional observations from a re-analysis of the deposited data

How the results depend on the processing

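None of the 10 tested member probe sets passed an adjusted p of 0.05 with limma in any alternative run. Of 665 member differences under alternatives other than leaving out an array, 650 kept their direction and 15 reversed. Most of those 650 could not have reversed. Other filters and floors, the replicate block, trended robust eBayes, 1 probe set per gene and fitting only the arrays compared leave these differences unchanged. All 15 reversals came with quantile normalization, median centring or HO replicate 2 counted as HE. Of 630 differences with 1 array left out, 577 kept their direction and 53 reversed. There, a genotype difference cannot change when the array left out belongs to neither genotype compared. The lowest member adjusted p was 0.6764 for HO minus WT, 0.9939 for HE minus WT, 0.9317 for HO minus HE and 0.3172 for replicate 3 minus replicate 2. With the replicate block, 808 probe sets had an unadjusted p under 0.05 for HO minus WT (610 without it), 0 passed, and the members' adjusted p ran from 0.8261 to 0.9996. The block changed no call at the adjusted threshold. At H2-Ab1 1450648_s_at and H2-DMa the HO minus WT interval left out 0 with it, so both are among the 808 probe sets. The alternatives for counts of members by array order, by replicate number or at an unadjusted p were chosen after seeing the data. Having 3 arrays per genotype limits all of this, and signal over background could not be judged without detection calls. The causes of the changes below were not tested.

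With quantile normalization, HO minus WT was 0.0505 for H2-Oa, HE minus WT -0.0042 for H2-Ab1 (1425477_x_at) and -0.013 for H2-Aa (1435290_x_at), HO minus HE -0.0501 for Cd74, and replicate 3 minus replicate 1 0.0498 for H2-Aa (1452431_s_at). With median centring, HO minus WT was 0.045 for H2-Oa, both transgenic groups minus WT 0.0296 for H2-Eb1, and replicate 3 minus replicate 1 -0.001 for H2-Oa. Then 3 member probe sets had replicate 1 arrays all below replicate 2 arrays (5 otherwise). With HO replicate 2 counted as HE, HO minus WT was -0.037 for H2-Eb1. HO minus HE was then -0.032 for H2-Eb1, -0.055 for H2-Oa, -0.053 for H2-DMa, -0.097 for Cd74, -0.053 for H2-Ab1 (1450648_s_at) and -0.015 for H2-Ab1 (1451721_a_at), with a member median of -0.02 (0.11 otherwise).

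Counts of passing probe sets, none of them members, also moved. Without the filter 2 passed for HE minus WT, 2 for HO minus HE and 2 for the F test over genotypes, against 0 each with it. For replicate 2 minus replicate 1, 4 passed, against 0 without the filter, 9 with a trended robust eBayes, 0 with HO replicate 2 as HE and 2 with 1 probe set per gene. For replicate 3 minus replicate 1, 0 passed, against 3 with the trended robust eBayes. For the F test over numbers 2 passed, against 1 with quantile normalization, 1 with median centring, 0 without the filter, 1 with the filter at the 60th percentile, 5 with the trended robust eBayes, 0 with HO replicate 2 as HE and 1 with 1 probe set per gene.

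With each array left out in turn, the count passing was 0 to 1 for HO minus WT, HE minus WT, both transgenic groups minus WT, the F test over genotypes, replicate 3 minus replicate 1 and the F test over numbers, and 0 to 6 for replicate 2 minus replicate 1. Member probe sets lower in replicate 3 than replicate 2 at an unadjusted p under 0.05 numbered 4 to 6 (7 with all arrays). Member medians ran from 0.04 to 0.25 for HO minus WT, -0.09 to 0.13 for HE minus WT, 0.04 to 0.24 for HO minus HE, -0.0097 to 0.21 for both transgenic groups minus WT, 0.18 to 0.29 for replicate 2 minus replicate 1, -0.20 to -0.10 for replicate 3 minus replicate 1 and -0.46 to -0.34 for replicate 3 minus replicate 2. Differences that changed sign ran as follows. HO minus WT was -0.073 to 0.14 for H2-Eb1, -0.097 to 0.079 for H2-Oa, -0.027 to 0.04 for Ciita and -0.037 to 0.21 for H2-Aa (1452431_s_at). HE minus WT was -0.16 to 0.031 for H2-Eb1, -0.45 to 0.099 for Ciita, -0.16 to 0.25 for H2-DMa, -0.15 to 0.15 for H2-Ab1 (1425477_x_at), -0.0098 to 0.23 for Cd74, -0.055 to 0.12 for H2-Aa (1435290_x_at), -0.0398 to 0.27 for H2-Ab1 (1451721_a_at) and -0.14 to 0.11 for H2-Aa (1452431_s_at). HO minus HE was -0.098 to 0.45 for Ciita, -0.0515 to 0.15 for Cd74 and -0.0093 to 0.29 for H2-Ab1 (1451721_a_at). Both transgenic groups minus WT was -0.12 to 0.0745 for H2-Eb1, -0.22 to 0.0499 for Ciita, -0.023 to 0.24 for H2-Ab1 (1425477_x_at) and -0.088 to 0.16 for H2-Aa (1452431_s_at). Replicate 2 minus replicate 1 was -0.0565 to 0.20 for H2-Oa and -0.0071 to 0.21 for H2-Aa (1452431_s_at). Replicate 3 minus replicate 1 was -0.098 to 0.11 for H2-Oa, -0.12 to 0.21 for Ciita, -0.084 to 0.014 for H2-DMa and -0.18 to 0.11 for H2-Aa (1452431_s_at), and replicate 3 minus replicate 2 was -0.19 to 0.065 for H2-Oa.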
